A study of Sus scrofa with 24 samples.

Results

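NTN1, the gene of the secreted guidance protein netrin-1, was followed in pig liver across lines that differ in residual feed intake (RFI), the feed an animal eats beyond what its growth and maintenance predict. All non-control probes whose name, description or accession in the scanner output names NTN1 were taken, and 2 of 43603 probes did so. They represent 1 of the 5271 genes that carried a symbol. NTN1 was chosen by its measured differences in level between these groups, so its levels and group differences are given as a description, without a test.

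Each of 24 pigs gave 1 single-colour array, at 115 kg body weight. The 8 low RFI pigs (RFIneg) and the 8 high RFI pigs (RFIpl) ate ad libitum. The other 8 pigs were of high RFI and ate at the level of the low RFI pigs (RFIplR, restricted high RFI below). Comparing high with low RFI pigs asks what differs between lines at free intake, comparing restricted with high RFI pigs asks what differs with the feeding level, and comparing restricted with low RFI pigs asks what differs between lines at the same feeding level. The labels give no sex or age, and they do not say which pigs shared a litter.

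Netrin-1 is a laminin-related protein that cells release into the matrix around them. It attracts or repels growing axons and migrating cells through the receptors DCC, neogenin and the UNC5 family. In liver it has been studied mainly in relation to inflammation and injury. Neogenin also binds repulsive guidance molecules, among them hemojuvelin, a co-receptor through which bone morphogenetic proteins raise the hepatocyte hormone hepcidin.

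Both NTN1 probes are 60 bases long and lie on the same transcript in the scanner output, where they start at bases 1288 and 1955, which puts their starts 667 bases apart. They are shown because the results below differ between them. The first is printed whole, and of the second the last 30 bases (31 to 60) are printed, with the hexamer AATAAA, a common polyadenylation signal, in capitals.

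NTN1 A_72_P441419: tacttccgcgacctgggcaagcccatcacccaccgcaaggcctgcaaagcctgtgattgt
NTN1 A_72_P302679: gatatcaattaAATAAActcttgtacactg

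Of the bases of A_72_P441419, 60% are G or C, against 38.3% in A_72_P302679 and a median of 41.7% over all 43603 probes. The hexamer lies at bases 42 to 47 of A_72_P302679. It occurs on the printed strand in 9.60% of all probes and on either strand in 13.4%, and its presence is a description of the letters only. No run of 16 bases is shared between the NTN1 probes, and neither probe shares one with any other probe on the array, on either strand. No genome position is given, because no genome of the probes' build was used here.

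Over the whole series, each array had 63.2% to 72.7% of its spots clearly over background, no spot was saturated, and arrays correlated with each other at 0.971 to 0.991. The arrays came from 6 slides read on 2 scan days, with 3 low, 4 high and 5 restricted pigs on day 1 and 5, 4 and 3 on day 2. All 8 hepatocyte markers on the array, of 11 listed, passed the filter on dim probes. The log2 of their summed level lay between 11.10 and 11.22 in low, 11.02 and 11.30 in high and 11.05 and 11.22 in restricted pigs. Levels below are log2 values of the processed signal minus the 75th percentile of the same array, which lay between a signal of 364 and 470. Whether a lower level reflects fewer cells of a type or less RNA per cell cannot be told apart in such whole-tissue samples. Precision is limited by how many arrays there were.

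NTN1 was above background in every liver. At A_72_P302679 the processed signal ran from 388 to 1552 over the 24 pigs. At A_72_P441419 it ran from 41.0 to 87.0, while the lowest signal called well above background on an array was between 7.47 and 15.8. Signals of different probes depend on their sequences and are not set against each other.

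At A_72_P302679, low RFI livers had the least NTN1 signal. The lowest of the 8 low RFI pigs stood at 0.01, the median at 0.53 and the highest at 1.21 (mean 0.55 ± 0.34, SD, n = 8). In high RFI pigs the lowest level was 0.68, the median 1.20 and the highest 1.82 (mean 1.23 ± 0.35, SD, n = 8). Restricted high RFI pigs ran from 0.98 through a median of 1.56 to 1.86 (mean 1.46 ± 0.33, SD, n = 8). The groups were thus ordered low, high, restricted.

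High RFI pigs exceeded low RFI pigs by 0.68 (SE 0.16), or 1.60-fold, at this probe. All 8 high RFI pigs lay above the low RFI mean, 4 of them lay above every low RFI pig, and 6 low RFI pigs lay below every high RFI pig. Over all 29665 probes kept, 0.162% passed an adjusted p of 0.05 in this comparison (limma with Benjamini-Hochberg adjustment), 0.0809% as higher and 0.0809% as lower in high RFI pigs, a share that stands here only as background because the same contrast was known when NTN1 was chosen.

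Restricted high RFI pigs exceeded low RFI pigs by 0.90 (SE 0.16), or 1.87-fold. All 8 of them lay above the low RFI mean, and 6 lay above every low RFI pig. The overlap came from low RFI pig 4, at 1.21, without which all low RFI pigs were below all restricted pigs. The background share was 0.229% of probes, 0.125% higher and 0.105% lower in restricted pigs. This comparison and the preceding one share the low RFI arrays, so they are not separate evidence of a low level in that group.

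Restricted and high RFI pigs, neighbours in the order, differed by 0.22 (SE 0.16), or 1.17-fold. That is less than the spread between pigs of a group, which was 0.34 (pooled SD). Of the 8 restricted pigs, 6 lay above the high RFI mean and 1 lay above every high RFI pig. No probe of the array (0%) passed the threshold in this comparison, and 5.37% had an unadjusted p under 0.05.

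**Figure D1:**
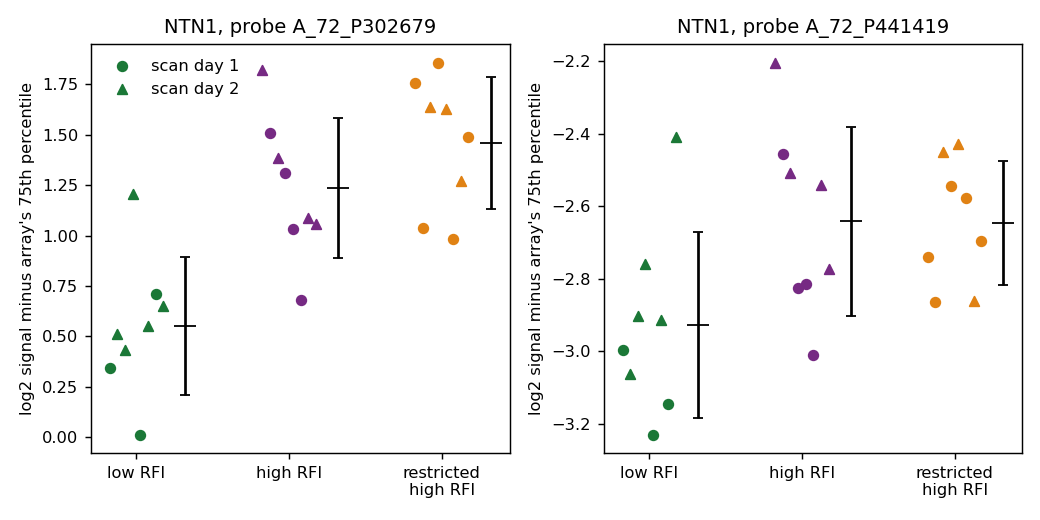
Level of NTN1 in each liver at both probes, as log2 signal minus the array's 75th percentile, by group; circles and triangles are arrays of scan day 1 and 2, and the bar with caps is the group mean ± SD (8 pigs each). At A_72_P302679 a single low RFI pig, at 1.21, reaches into the range of the restricted pigs, while the groups overlap more at A_72_P441419; the vertical scales of the panels differ.

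A_72_P441419 gave a smaller difference between lines. Its levels in low RFI pigs ran from -3.23 through a median of -2.95 to -2.41 (mean -2.93 ± 0.26, SD, n = 8). In high RFI pigs they ran from -3.01 through -2.66 to -2.20 (mean -2.64 ± 0.26, SD, n = 8). In restricted pigs they ran from -2.86 through -2.64 to -2.43 (mean -2.64 ± 0.17, SD, n = 8). High and restricted pigs were at the same mean level, and all groups overlapped.

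High RFI pigs exceeded low RFI pigs by 0.29 (SE 0.12) at A_72_P441419, or 1.22-fold, with 7 of 8 above the low RFI mean and 1 above every low RFI pig. Restricted pigs exceeded low RFI pigs by 0.28 (SE 0.12), also 1.22-fold, with 8 of 8 above the low RFI mean and none above the highest low RFI pig. Restricted and high RFI pigs differed by -0.0035 (SE 0.12). The pooled SD within groups was 0.23, so the differences from low RFI pigs were little larger than the spread between pigs. With normexp, another background correction, they were 0.024 and -0.041, so that the difference between lines was lost at this dim probe. Normexp was run with an added offset of 50, beside processed signals of 41.0 to 87.0 at this probe. At A_72_P302679, with signals of 388 to 1552, normexp gave 0.68 and 0.90.

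Slides held pigs of different groups, so the differences could be read within each slide. Each slide held only 1 or 2 pigs of a group. At A_72_P302679, high RFI pigs were above low RFI pigs on 6 of 6 slides, by 0.50 to 1.02, and restricted pigs were above low RFI pigs on 6 of 6, by 0.76 to 1.15. Restricted pigs were above high RFI pigs on 4 of 6 slides, with differences from -0.17 to 0.54. At A_72_P441419 the high minus low difference was above 0 on 6 of 6 slides (0.078 to 0.69), as was restricted minus low (0.20 to 0.51). Restricted minus high was above 0 on 4 of 6 slides there (-0.37 to 0.22). The difference from low RFI pigs thus kept its sign on every slide at both probes, and the difference between feeding levels did not. NTN1 was chosen on these same arrays, so the slides describe its differences and are not separate evidence of them.

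**Figure D2:**
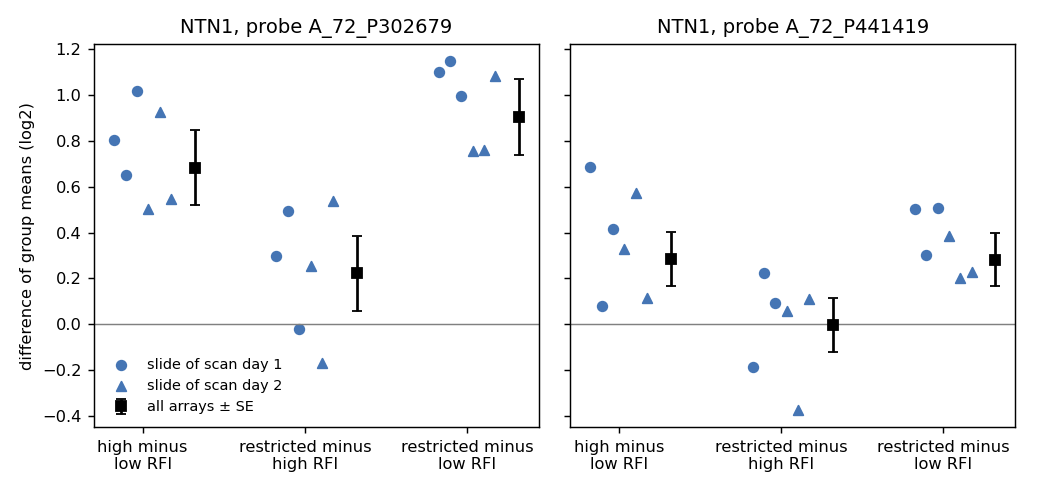
Differences of group means (log2) at both NTN1 probes within each of the 6 slides (circles, scan day 1; triangles, scan day 2) and over all arrays (black squares ± SE). High minus low and restricted minus low lie above 0 on all 6 slides in both panels, and restricted minus high lies on both sides of 0.

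Reading each scan day alone, again as a description of the same arrays, gave similar values at A_72_P302679. High minus low was 0.78 on day 1 and 0.67 on day 2, and restricted minus low was 1.07 and 0.84. At A_72_P441419, high minus low was 0.35 and 0.30, and restricted minus low was 0.44 and 0.23. Both probes were higher in high and in restricted pigs than in low RFI pigs on each day.

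Within groups, pigs high at one NTN1 probe tended to be high at the other. After the group means were removed, the probes correlated at r = 0.64 and rho = 0.66 over 24 pigs. The probes share transcript, arrays and scaling, so these values are a description, without a test. With slide means removed as well, r was 0.67. Without the 2 pigs farthest from the median of A_72_P302679, r was 0.54. It was 0.55 among the 12 arrays of day 1 and 0.63 among the 12 of day 2. Within groups of 8 it was 0.50 in low, 0.89 in high and 0.47 in restricted pigs. With normexp r was 0.21, so the size of the relation depended on the background correction.

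Other probes moved with NTN1 as closely as its own second probe did. Ranked by correlation with A_72_P302679, the other NTN1 probe was number 64 of 29664 kept probes. Ranked by correlation with A_72_P441419, A_72_P302679 was number 153.

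Measures of the array were also set beside NTN1 within groups. A_72_P441419 correlated with the log2 75th percentile of the array at r = -0.49 and rho = -0.50 over 24 arrays, and r was -0.33 without the 2 arrays farthest from the median. That percentile is subtracted to give the level, so a negative value is partly built in, and no test is read from it. A_72_P302679 correlated with the share of spots well above background at r = 0.49 and rho = 0.34, with r = 0.45 without the 2 farthest arrays. A_72_P302679 correlated with the 75th percentile, which is subtracted there too, at r = 0.018 and rho = -0.031. A_72_P441419 correlated with the share of spots above background at r = 0.17 and rho = 0.22. Arrays share slides and scaling, so all these correlations are a description, without a test. The share of spots above background was 67.8% ± 2.77 in low, 70.2% ± 2.28 in high and 67.4% ± 2.81 in restricted pigs (SD, n = 8 each). The part of these measures in the NTN1 levels was not tested.

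**Figure D3:**
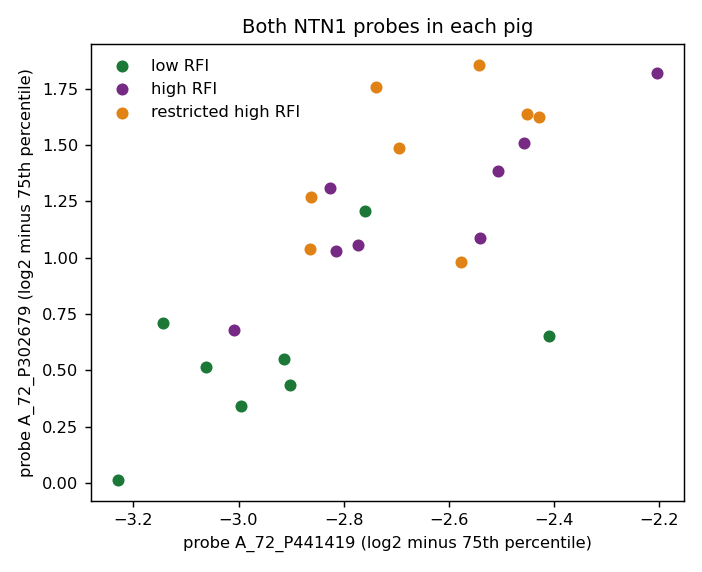
Level of NTN1 at A_72_P302679 (vertical) against A_72_P441419 (horizontal) in each of 24 pigs, both as log2 signal minus the array's 75th percentile, coloured by group. Pigs high at one probe tend to be high at the other, with r = 0.64 after the group means are removed, and low RFI pigs lie mostly at the lower left.

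The receptors through which netrin-1 acts were measured in part. Of 14 receptor and receptor-like genes listed, 6 were on the array and 5 were kept. None passed the threshold in any comparison, beside 0.162%, 0% and 0.229% of all 29665 probes. Neogenin, NEO1, was dim at both of its probes. At A_72_P189856 its mean was -4.03 in low, -3.79 in high and -4.15 in restricted pigs, with differences of 0.24 (high minus low), -0.36 (restricted minus high) and -0.11 (restricted minus low, SE 0.15 each). At A_72_P342143 the differences were 0.03, 0.08 and 0.12 (SE 0.23 each), all well under their SE, and the signs of the NEO1 probes differed in both comparisons with restricted pigs. Within groups NEO1 correlated with A_72_P302679 at 0.24 and -0.28 for its respective probes over 24 arrays.

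Of the UNC5 family, which mediates repulsion, UNC5B differed by 0.12, -0.28 and -0.16 (SE 0.14 each) in the same order of comparisons and was well above background in 6 low, 8 high and 5 restricted pigs. UNC5C was well above background in 1 of 24 pigs and was not kept. The UNC5C-like gene UNC5CL differed by 0.06, 0.19 and 0.25 (SE 0.30 each) at A_72_P600728, and a further UNC5CL probe was not kept. A_72_P600728 was well above background in 5 low, 7 high and 5 restricted pigs, so it was kept through the high RFI pigs alone. Whether UNC5CL binds netrin-1 was not examined here. The cell adhesion molecule MCAM, a reported netrin-1 receptor, differed by 0.06, 0.21 and 0.27 (SE 0.17 each) at A_72_P400763 and by -0.36, 0.11 and -0.25 (SE 0.18 each) at A_72_P387268, so its probes did not go the same way. The integrin subunit ITGB1, bright at all 6 of its probes, differed by 0.01, -0.05 and -0.04 (SE 0.09 each) at the brightest, A_72_P195557. At its other probes, from brighter to dimmer, high minus low was -0.14, -0.11, -0.20 (SE 0.11), -0.05 and -0.004. Over the 5 kept genes of this list, UNC5CL included, each at its brightest kept probe, the median difference was 0.057, 0.084 and 0.12. Over all 29665 probes it was 0.0036, -0.011 and -0.0053. The medians of this list depend on the probe taken and on the counting of UNC5CL. In restricted minus low, NEO1 and MCAM were at 0.12 and 0.27 at their brighter probes and at -0.11 and -0.25 at their dimmer ones. Of the other netrins, 5 genes were listed. NTNG2 was on the array, and neither it nor a probe described as netrin G1 was well above background on any array.

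Neogenin's other ligands and the hepcidin arm were better covered. Of 8 genes listed, 6 were measured, and none passed the threshold. RGMA, a repulsive guidance molecule, differed by -0.17, 0.02 and -0.15 (SE 0.12 each) and RGMB by 0.13, 0.07 and 0.20 (SE 0.16 each). Within groups RGMA correlated with A_72_P302679 at 0.28 and with A_72_P441419 at 0.66, and RGMB at -0.060 and -0.40. The RGMA probe kept was named by its description, so RGMA was not among the genes ranked for likeness below. Hemojuvelin, given as HFE2, differed by 0.00, -0.11 and -0.11 (SE 0.20 each). The growth factor genes BMP2 (-0.09, -0.36 and -0.44, SE 0.23 each) and BMP6 (-0.12, 0.15 and 0.03, SE 0.31 each) lay within about 2 SE of 0.

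Hepcidin, HAMP, had the widest spread among these genes. At A_72_P302614 it differed by -0.01, 1.33 and 1.32 (SE 0.87 each) and at A_72_P458477 by -0.04, 1.44 and 1.40 (SE 0.92 each). High RFI pig 7 stood at -0.89 and -2.55 at these probes. Without that pig, restricted minus high was 0.52 and 0.58, and high minus low was 0.80 and 0.82. High RFI pig 7 was at 1.09 for NTN1 at A_72_P302679, inside the range of its group.

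**Figure D4:**
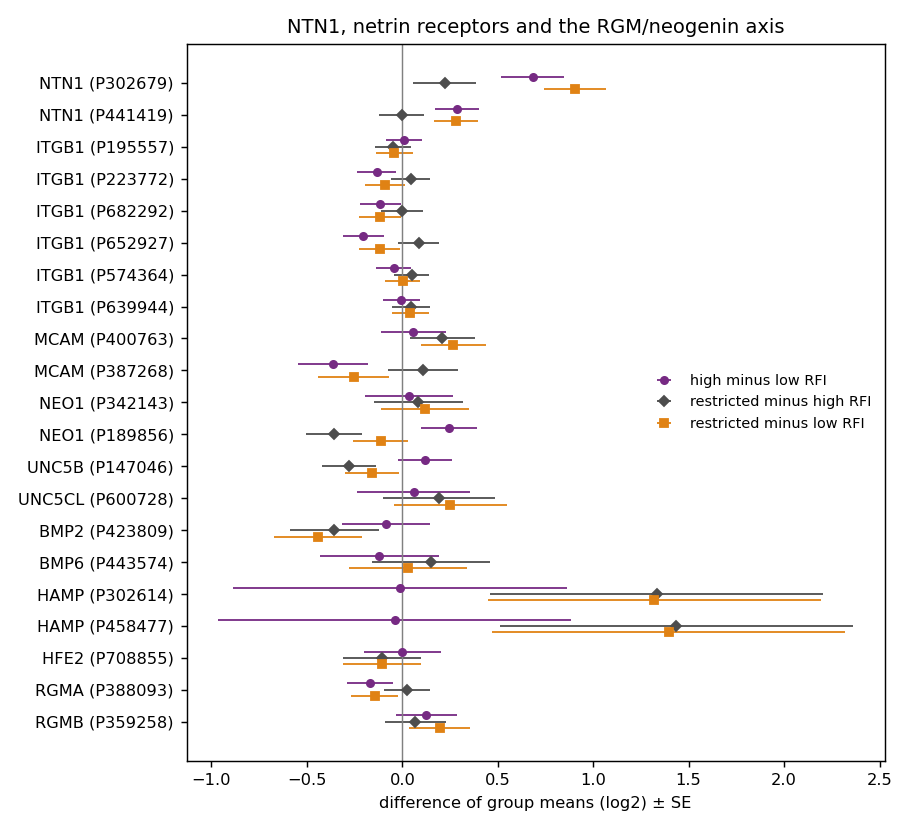
Differences of group means (log2) ± SE for both NTN1 probes, the genes of the netrin receptor list and those of the repulsive guidance and hepcidin arm, with 1 row per probe and 1 symbol per comparison. NTN1 at A_72_P302679 lies at 0.68 and 0.90 against low RFI pigs with an SE of 0.16, while HAMP reaches 1.44 with an SE of 0.92.

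Genes that pass the netrin signal on inside cells were listed as 29, of which 11 were kept. None passed, and their median differences were -0.011, -0.055 and -0.10. MAGED1, which binds the intracellular part of UNC5 receptors, differed by -0.43 (SE 0.12, adjusted p = 0.167 in limma's fit) in high minus low and by -0.31 (SE 0.12, adjusted p = 0.266) in restricted minus low. The kinase gene FYN differed by -0.24 (SE 0.13) in high minus low. The adaptor APPL1 differed by -0.12 (SE 0.08) in restricted minus high and by -0.13 (SE 0.08) in restricted minus low, and the phosphatase gene PTPN11 by -0.11 (SE 0.08) in restricted minus high.

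Other guidance families likewise gave no call. Of 31 semaphorins and plexins 7 were kept, of 21 ephrins and Eph receptors 4, of 10 genes of the Slit and Robo family 1, and of 11 laminins 1. Their median differences in high minus low were -0.14, -0.11, -0.055 and 0.074. By smallest p, the semaphorin group gave PLXND1 (-0.18, SE 0.16) and SEMA6C (-0.14, SE 0.13) in high minus low, SEMA3B (-0.19, SE 0.15) and SEMA3G (-0.10, SE 0.11) in restricted minus high, and SEMA3B (-0.26, SE 0.15) and SEMA4F (-0.24, SE 0.21) in restricted minus low. In the ephrin group EPHA1 differed by -0.31 (SE 0.19) and EFNB2 by -0.13 (SE 0.15) in high minus low. They differed by -0.30 and -0.10 in restricted minus low, and EFNA1 (0.12, SE 0.25) and EFNA4 (0.03, SE 0.12) led in restricted minus high. SLIT2 differed by -0.06, 0.05 and -0.00 (SE 0.18 each) and LAMB1, a laminin subunit, by 0.07, -0.02 and 0.06 (SE 0.13 each).

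Over all these lists without NTN1, and with 1 probe per gene, 35 of 129 genes were kept and 0 passed in any of the 3 comparisons under limma. Of all 29665 probes, 0.162%, 0% and 0.229% passed. A count of 0, here and in each list above, is near that share and says little about these genes. At an unadjusted p under 0.05 there were 1, 0 and 1 of the 35, beside 9.54%, 5.01% and 12.1% of 4390 genes with 1 probe each. Counting all 61 kept probes of these genes, 0 passed and 3, 1 and 3 had an unadjusted p under 0.05, beside 9.64%, 5.37% and 12.8% of all probes. With 1 probe per gene, 13, 18 and 12 of the 35 were above 0, with medians of -0.050, 0.011 and -0.057.

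Genes most like NTN1 were ranked by their correlation with each NTN1 probe over 24 arrays after removal of the group means, among 4390 genes with 1 probe each. The points share arrays, slides and scaling, and the correlations are a description. For A_72_P302679, r ran from -0.72 to 0.72 with a median of 0.062, and 15 genes reached 0.6 while 6 were at or below -0.6.

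The 10 genes closest to A_72_P302679 were RNF5, a ubiquitin ligase of the endoplasmic reticulum (0.72), the 14-3-3 adaptor YWHAB (0.68), the nuclear import receptor KPNA4 (0.65), the actin-binding TMSB4X (0.64), NDUFB8 of respiratory complex I (0.63), the glycolipid transfer protein GLTP (0.63), the calcium-binding PVALB (0.62), the mitochondrial sirtuin SIRT4 (0.62), the dynein light chain DYNLT3 (0.62) and the tankyrase TNKS2 (0.61). PVALB was well above background on 12 of 24 arrays. The 5 genes farthest in the other direction were the carbonyl reductase CBR1 (-0.72), the stress-induced GADD45A (-0.65) and GADD45G (-0.64), the granzyme gene GZMH (-0.62) and the water channel AQP3 (-0.62), which was well above background on 13 arrays.

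None of these 15 genes passed the threshold in any comparison, beside 0.162%, 0% and 0.229% of all 29665 probes. Their group means did not all follow those of NTN1. RNF5 was ordered against NTN1, at 5.46 in low, 5.30 in high and 5.18 in restricted pigs. TMSB4X was ordered as NTN1 at A_72_P302679, at 6.65, 6.75 and 6.80. Without group centring, RNF5 correlated with NTN1 at 0.19 and TMSB4X at 0.65.

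Of these genes NDUFB8 differed most between the scan days, at 0.25 on day 1 and 0.89 on day 2. CBR1 was at -0.84 and -0.53, and GADD45G at -0.81 and -0.61. With normexp, GADD45A (-0.67), GADD45G (-0.64) and DYNLT3 (0.65) changed little, whereas PVALB was at 0.086 and AQP3 at -0.043. At the other NTN1 probe, NDUFB8 was at 0.70 and ranked 12th of 4390, PVALB was at 0.59, and RNF5 at 0.56, while TMSB4X was at 0.28.

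**Figure D5:**
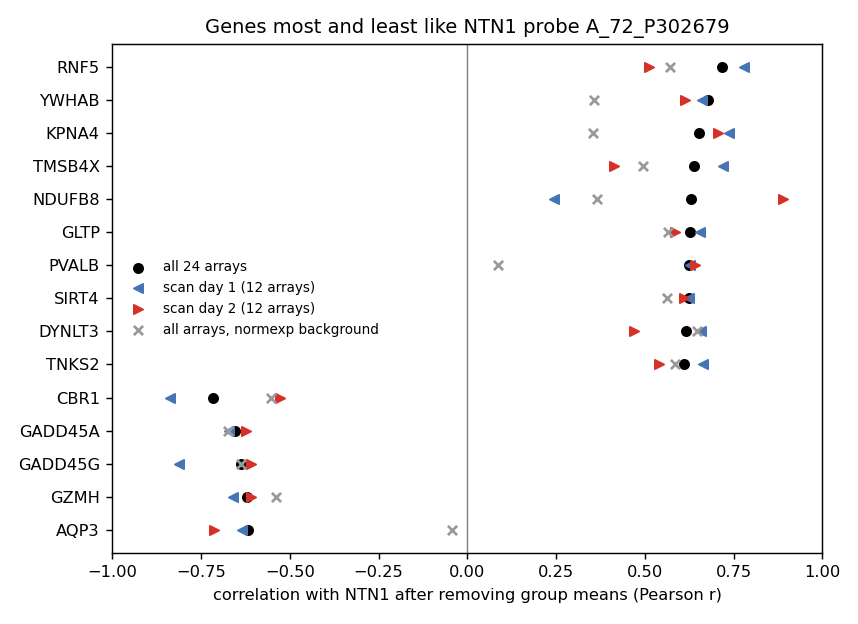
Pearson correlation with NTN1 probe A_72_P302679 after removal of group means, for the 10 genes with the highest and the 5 with the lowest value over all 24 arrays (black), on each scan day (triangles, 12 arrays each) and with normexp background correction (crosses). All 15 keep their sign, with AQP3 (-0.043) and PVALB (0.086) near 0 under normexp.

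For A_72_P441419, r ran from -0.75 to 0.76 with a median of 0.068, and 56 genes reached 0.6 while 8 were at or below -0.6. Its 10 closest genes were the peroxisomal thioesterase ACOT8 (0.76), the TSC complex subunit TBC1D7 (0.76), the mitochondrial co-chaperone DNAJC15 (0.75), COX7A2 of respiratory complex IV (0.74), PHRF1 (0.73), the mesoderm transcription factor MESP1 (0.72), OSGEP (0.72) and GON7 (0.72), which act in tRNA modification, ROMO1 of the mitochondrial inner membrane (0.72) and the intramembrane protease SPPL3 (0.71). The 5 lowest were moesin, MSN (-0.75), dynamin, DNM1 (-0.66), RASIP1 (-0.65), AMDHD1 of histidine breakdown (-0.63) and TBC1D1 (-0.61). None of them passed in a comparison either.

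The likeness lists of the NTN1 probes were largely separate. They shared 0 of their 10 closest genes and 19 of their 100 closest. With normexp, 8 of the 10 genes closest to A_72_P441419 turned negative, among them ACOT8 (-0.47) and ROMO1 (-0.60), while TBC1D7 (0.31) and SPPL3 (0.52) stayed above 0. Of its 5 lowest genes, DNM1 turned from -0.66 to 0.83, and MSN (0.23), RASIP1 (0.45) and TBC1D1 (0.076) also came above 0. AMDHD1 stayed below, at -0.48.

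Probes without a gene symbol came closer to NTN1 than any named gene. The closest of all kept probes to A_72_P302679 was A_72_P426899, described as unknown, at r = 0.84 and rho = 0.83. It was chosen after its values were seen. Its last 30 bases are shown for that reason, with no part capitalised.

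A_72_P426899: aaaaataatgtttgtgtatccatcccctaa

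Its r with NTN1 was 0.93 on day 1, 0.64 on day 2 and 0.19 with normexp. Its group means, -3.04 in low, -3.05 in high and -2.99 in restricted pigs, did not differ as those of NTN1 did. The third closest, A_72_P162646 (r = 0.79, also chosen after its values were seen), did have its lowest mean in low RFI pigs, at -3.28 ± 0.23, -2.72 ± 0.22 and -2.71 ± 0.30 (SD, n = 8). Restricted and high RFI pigs were level at this probe, with a difference of 0.014 (SE 0.12). A_72_P162646 was higher by 0.55 (SE 0.12, limma adjusted p = 0.0717) in high than in low RFI pigs and by 0.57 (SE 0.12, adjusted p = 0.0511) in restricted than in low RFI pigs, both short of the threshold. Its r with NTN1 was 0.95 on day 1, 0.57 on day 2 and 0.26 with normexp.

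The probes that passed in restricted minus low showed, as a set, a median correlation with NTN1 near that of all probes. The 36 probes other than those of NTN1 called higher correlated with A_72_P302679 at a median of -0.023 (-0.60 to 0.69) and the 31 called lower at a median of 0.024 (-0.45 to 0.61), beside a median of 0.045 over 29663 probes. The glucose transporter gene SLC2A4, called higher in restricted pigs by 1.01 (SE 0.20, limma adjusted p = 0.0263) had, among the named genes called in this comparison, the correlation with A_72_P302679 farthest from 0, at r = -0.60. OAZ3 (0.16 and 0.087 at its probes), UBD (0.0099) and SYK (-0.39), also called, were nearer to 0.

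Markers of cell types that liver samples can hold were set beside NTN1 as list scores, the mean of the centred log2 levels of the measured markers. Correlations with NTN1 are over 24 arrays after removal of group means, first with A_72_P302679 and then with A_72_P441419. The T and NK cell score (7 of 10 markers, PRF1 not kept) was at -0.51 and -0.39, and it overlapped between groups, from -0.57 to 0.43 in low, -0.45 to 0.56 in high and -0.59 to 0.61 in restricted pigs. The pancreatic acinar score (4 of 10, with CELA1, CPB1 and PNLIP not kept) was at 0.37 and 0.61, adipocyte (5 of 7) at 0.23 and 0.42, neutrophil (3 of 6) at 0.28 and 0.36, and Schwann or neuronal (3 of 11) at 0.13 and 0.42.

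For other cell types the sign turned between the NTN1 probes. The endothelial score (8 of 12) was at 0.21 and -0.26, macrophage (5 of 10) at 0.23 and -0.16, hepatocyte (8 of 11) at -0.18 and 0.13, stellate and fibroblast (8 of 14) at 0.21 and -0.017 and cholangiocyte (6 of 9) at 0.064 and -0.10. The single B cell marker measured (of 8) was at -0.17 and -0.13, and the single erythroid marker (of 6) at 0.098 and 0.21.

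With 1 probe per gene, no marker of these lists passed the threshold in any comparison under limma, beside 0.162%, 0% and 0.229% of all 29665 probes. In restricted minus low, where NTN1 differed most, an unadjusted p under 0.05 was found for 4 of 8 stellate and fibroblast, 2 of 4 acinar, 1 of 8 endothelial, 1 of 5 macrophage, 1 of 3 Schwann or neuronal and 1 of 5 adipocyte markers, and for none of the other lists, beside 12.1% of 4390 genes with 1 probe each.

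Several mean scores were ordered like the NTN1 groups or against them. The macrophage score was ordered as NTN1 at A_72_P302679, with means of -0.11 in low, 0.026 in high and 0.088 in restricted pigs. Its ranges overlapped, from -0.46 to 0.13, -0.17 to 0.34 and -0.20 to 0.51. The hepatocyte means had that order too, at -0.013, -0.0066 and 0.020.

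Ordered the other way were the means of stellate and fibroblast (0.32, -0.045 and -0.28), acinar (0.54, -0.13 and -0.41), endothelial (0.10, -0.036 and -0.065), Schwann or neuronal (0.15, -0.021 and -0.13) and B cell markers (0.034, 0.0034 and -0.037). The stellate and fibroblast score lay between 0.098 and 0.57 in low, -0.44 and 0.45 in high and -0.49 and 0.14 in restricted pigs, and the acinar score between -0.37 and 1.27, -0.95 and 0.62, and -0.86 and 0.24. Cholangiocyte (-0.030, -0.084 and 0.11), neutrophil (0.33, -0.27 and -0.055), adipocyte (0.14, -0.081 and -0.063) and erythroid means (0.12, -0.11 and -0.0099) and those of T and NK cells (-0.013, 0.037 and -0.024) followed neither order. The part of these cell types in the NTN1 levels was not tested.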

How the data were processed

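Liver RNA of 24 pigs, 150 ng each, was labelled with Cy3 and hybridised 1 pig per array, per the labels' protocols. Per the file headers, Agilent Feature Extraction 10.7.3.1 read 45220 features (1417 controls) and gave the deposited processed intensity after background subtraction and detrending. Flags for spots well above background and raw intensity values, also deposited by the authors, served the filter and normexp (offset 50). The authors' deposited table of log2 values (27564 features) equals log2 of the processed signal minus a constant per array, and served as an alternative. The submitters' processing notes name R 2.10.0.

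Control spots were left out, log2 processed signal minus the array's 75th percentile was averaged per probe, and 29665 of 43603 probes were kept, being well above background on at least 6 of 8 arrays of at least 1 group. Symbols came from the scanner output through pig name tables (RefSeq Sscrofa11.1, names only). Of the probes, 12012 carried 1 symbol, 40 matched several genes and 31208 matched none. Comparisons used limma 3.58.1 in R 4.3.3 with all 24 arrays, group as the only factor, and Benjamini-Hochberg adjustment. The fit was tested on simulated data.

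Pathway genes named are all netrin, receptor and repulsive guidance genes measured, and otherwise the 2 genes per list with the smallest p in a comparison. Likeness names the 10 highest and 5 lowest genes by correlation. NTN1, the lists and the rules were chosen with earlier results of these data known. A further 7 pathway probes, such as those of NEO1, were named by their description after the data were seen. The labels do not say whether pigs are related. The fit treats them as independent, so its SEs and p-values may be too small if some are. Alternatives covered background, scaling, filter, slide, scan day, pig number, array weights and pigs left out.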

Additional observations from a re-analysis of the deposited data

Results flagged for a closer look

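In 12 of 197 groups of 8 pigs checked (6.09%), the highest or lowest pig stood apart by more than Dixon's 95% critical value for 8 samples, where chance gives about 1 in 20. None of the 6 NTN1 groups did, with a largest ratio of 0.43.

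Low RFI pig 5, which had the lowest NTN1 level at both probes (0.01 and -3.23), stood apart at 4 of the 6 probes of the integrin gene ITGB1. It was at 4.92 at A_72_P195557 (nearest pig 4.53), at 2.60 at A_72_P652927 (nearest 2.81), at 2.61 at A_72_P574364 (nearest 2.26) and at 2.46 at A_72_P639944 (nearest 1.89), so it was the highest at 3 of these probes and the lowest at 1. The same pig was the lowest for RNF5, the gene closest to A_72_P302679, at 4.76 (nearest 5.28).

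High RFI pig 7 was the lowest of its group for hepcidin, HAMP, at -0.89 (A_72_P302614, nearest 3.95) and -2.55 (A_72_P458477, nearest 2.59). It was also the lowest for BMP2, at -2.65 (nearest -1.78), and the highest for SEMA4F, at 0.60 (nearest -0.35).

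Single pigs stood apart for MESP1 (low RFI pig 8 at 4.46, nearest 4.002), KPNA4 (low RFI pig 4 at -0.89, nearest -1.07) and SEMA3B (high RFI pig 6 at 1.65, nearest 2.15). Low RFI pig 4 was also the low RFI pig with the highest NTN1 level at A_72_P302679, and low RFI pig 8 the one with the highest level at A_72_P441419.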

How the results depend on the processing

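At A_72_P302679 the NTN1 differences kept their sign in 21 alternatives and in the 16 fits that left out 1 pig each. High minus low ranged from 0.61 to 0.78 (0.60 to 0.78 with 1 pig left out), restricted minus high from 0.14 to 0.34 (0.14 to 0.31) and restricted minus low from 0.81 to 1.07 (0.83 to 0.997). At A_72_P441419 high minus low ranged from 0.024 to 0.37 (0.22 to 0.36), restricted minus high from -0.089 to 0.093 (-0.056 to 0.059) and restricted minus low from -0.041 to 0.44 (0.24 to 0.36). The low ends of high minus low and restricted minus low there, 0.024 and -0.041, came with normexp, and the cause was not tested. The deviations of same-numbered pigs correlated at -0.19 to 0.42, over 0.1 in 8 of 24 pairs. Those over 0.1 were 0.14, 0.19, 0.20, 0.23 and 0.42 between high and restricted pigs. They were 0.32 between low and high pigs, and 0.11 and 0.12 between low and restricted pigs. The labels do not say that the numbers pair the pigs, and the main fit did not pair them. With the pig number as a block, NTN1 differences at A_72_P302679 were 0.68, 0.22 and 0.90, and restricted minus low gave 103 called probes.

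The count of called probes over the array moved more. In high minus low (48) it was 5 with normexp, 28 with no filter, 5 on day 1 alone, 10 on day 2 alone, 13, 28, 31, 22 and 23 without slides 2 to 6 in turn, and 82 with array weights. In restricted minus high (0) it was 1 on day 2 alone and 2 with array weights. In restricted minus low (68) it was 13 with normexp, 36 and 10 on the separate days, 29, 24, 36, 24 and 40 without slides 2 to 6, 32 with only the 2 groups in the fit and 25 without restricted pigs 7 and 8. Fewer arrays enter the fits by day, slide and left-out pigs. Otherwise the cause was not tested. The guidance lists had 0 calls with normexp, quantile normalization, slide as a block and the pig number as a block.

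Of the 10 genes closest to A_72_P302679, 1 stayed among the 100 closest without group centring, 6 with slide means removed, 6 with normexp, 3 on day 1 alone and 2 on day 2 alone, and 9 or 10 under the other 4 alternatives. For A_72_P441419 none stayed with normexp, 2 on day 1 and 6 on day 2. The cause of these changes was not tested.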
